A study of Mus musculus with 14 samples.

Results

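Embryonic stem cells (ESC) were compared with skin fibroblasts on 8 of the 14 arrays of a mouse gene expression series, namely those labelled ESC-D and ESC-H (ESC D and ESC H below) and the 6 arrays of the fibroblast groups. The fibroblasts came from B6CBAF1 mice. The 3 Y-SC arrays carried fibroblasts of embryonic skin at day E17.5, labelled as young donors, and the 3 A-SC arrays carried fibroblasts of tail tip skin at an age of 1.5 years, labelled as aged donors. In each of these groups 1 array has no number in its label and is called the first here, while the remaining arrays bear the labels Y-SC 16 and Y-SC 17, or A-SC 1.3 and A-SC 1.4. Fibroblasts were grown in DMEM with 10% fetal bovine serum, and ESC in medium with 15% serum and LIF at 1000 U/ml. The strain of the ESC is not given in the labels, so strain, medium and cell type cannot be told apart in this comparison. No reprogramming virus is listed for any of these 8 samples. The other 6 arrays hold induced pluripotent stem cells made with viral factors and enter only the normalization and the estimate of spread. The labels do not state which animals or cultures the arrays of a group came from, so a p-value here reflects the spread among the arrays at hand, and the number of arrays limits the precision.

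As background, ESC derive from the inner cell mass of the blastocyst and keep the ability to form all cell types of the embryo. They hold this state through a network in which Oct4 (gene Pou5f1), Sox2 and Nanog bind near their own and each other's genes, and LIF acts through STAT3 to sustain it in mouse. ESC form epithelial colonies, divide fast with a short G1 phase and carry little fibrillar matrix. Fibroblasts are mesenchymal cells that build and remodel collagen matrix, pull on it with actin and myosin fibres, and keep a HOX code of the body site they came from.

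Levels below are log2 normalized bead signals, on which a difference of 1 unit is a factor of 2. Levels of different genes are read by different probes and are not set against each other. A difference is the ESC mean minus the mean of the Y-SC and A-SC means, with its standard error from limma and a p-value adjusted by the Benjamini-Hochberg method over all 13609 tested probes, for n = 2 ESC and 6 fibroblast arrays. A gene is called at an adjusted p under 0.05. Where no array of the lower group detected a gene, the fold is given as a lower bound against the detection limit of those arrays. Where only some arrays of the lower group did, the size of the difference depends in part on the offset of 16 added to the signal.

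Each array carried 25697 probes, of which 47.57% to 52.33% were detected, and median signals were 110.656 to 147.6. Both ESC arrays, Y-SC first and A-SC first have maxima of 10891.58 to 17129.41, and the other 4 fibroblast arrays, written with 1 decimal, of 30939.2 to 34281.1. These are called the first and second export format, and what they stand for is not given in the labels. With format as a block 5196 probes were called in place of 6307, and values under this block or within the first format are given where they change a call. The ESC arrays correlated at r = 0.9844, fibroblast arrays among themselves at 0.8978 to 0.976 and ESC with fibroblast arrays at 0.7486 to 0.8449, which are descriptions over probes. Of 12 ESC markers, 12 were detected on both ESC arrays and 1 to 3 on the fibroblast arrays, with summed signals of 44520 to 45000 and 313.3 to 351.6. Of 14 fibroblast markers, 12 to 14 were detected on each fibroblast array (summed signal 35250 to 57550) and 12 or 13 on the ESC arrays (7716 to 10070).

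The fibroblast arrays also carried markers of other skin cells, and they differed in these. On A-SC first, 8 of 10 endothelial markers were detected with a summed signal of 32200, against 2 to 5 and 491.2 to 709.5 on the other fibroblast arrays and 6 and 1677 to 2030 on the ESC arrays. Its vessel genes Emcn (13.78), Cdh5 (9.40) and Tie1 (8.31) lay at no more than 6.23, 4.62 and 4.71 on the other 5. The endothelial markers Kdr (4.39) and Vwf (4.47) were not detected on A-SC first. Macrophage markers, 12 in number, summed to 3674 and 8676 on Y-SC 16 and Y-SC 17 with 10 detected, to 1249 with 6 on Y-SC first, to 558.2 to 694 with 3 or 4 on A-SC and to 2527 to 3315 with 3 on ESC. The ESC sum rests on Laptm5, a lysosomal membrane gene of blood cells (11.51 and 11.09), while Adgre1, Tyrobp, Fcer1g, C1qa, C1qb and C1qc lay at 4.29 to 4.85 there. The macrophage lysozyme Lyz2 was at 9.42, 10.78 and 11.78 on Y-SC and at 6.68 to 7.82 on A-SC. Of 14 keratinocyte markers, 10 were detected on Y-SC first (summed signal 2582), 2 to 7 on the other fibroblast arrays (734.5 to 1059) and 7 or 8 on ESC (2289 to 3345). The Y-linked Eif2s3y was detected on Y-SC first, Y-SC 17 and A-SC first (9.78 to 10.11) and on ESC (7.48 and 9.55), and the inactive-X transcript Xist on the other 3 fibroblast arrays (7.73 to 8.68 over 2 probes). The second of these Xist probes was also detected, at a low level, on ESC D and ESC H (5.03 and 4.94). Kdm5d, also Y-linked, was at 6.44 to 7.34 on the same 3 fibroblast arrays and was not detected on ESC (4.77 and 4.63). Each fibroblast group thus holds arrays with the Y-linked genes and arrays with Xist in their place, so neither group came from a single animal. Of 302 genes tested on the X and Y chromosomes, 81 were higher and 67 lower in ESC. In such bulk samples fewer cells of a type and less RNA per cell cannot be told apart. The part of other cell types and of sex in the differences below was not tested. Without Y-SC 17 and A-SC first, the pair of fibroblast arrays that correlated least, 2479 genes were higher and 2319 lower, in place of 2283 and 2115, and several list counts that moved are given again below.

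**Figure D1:**
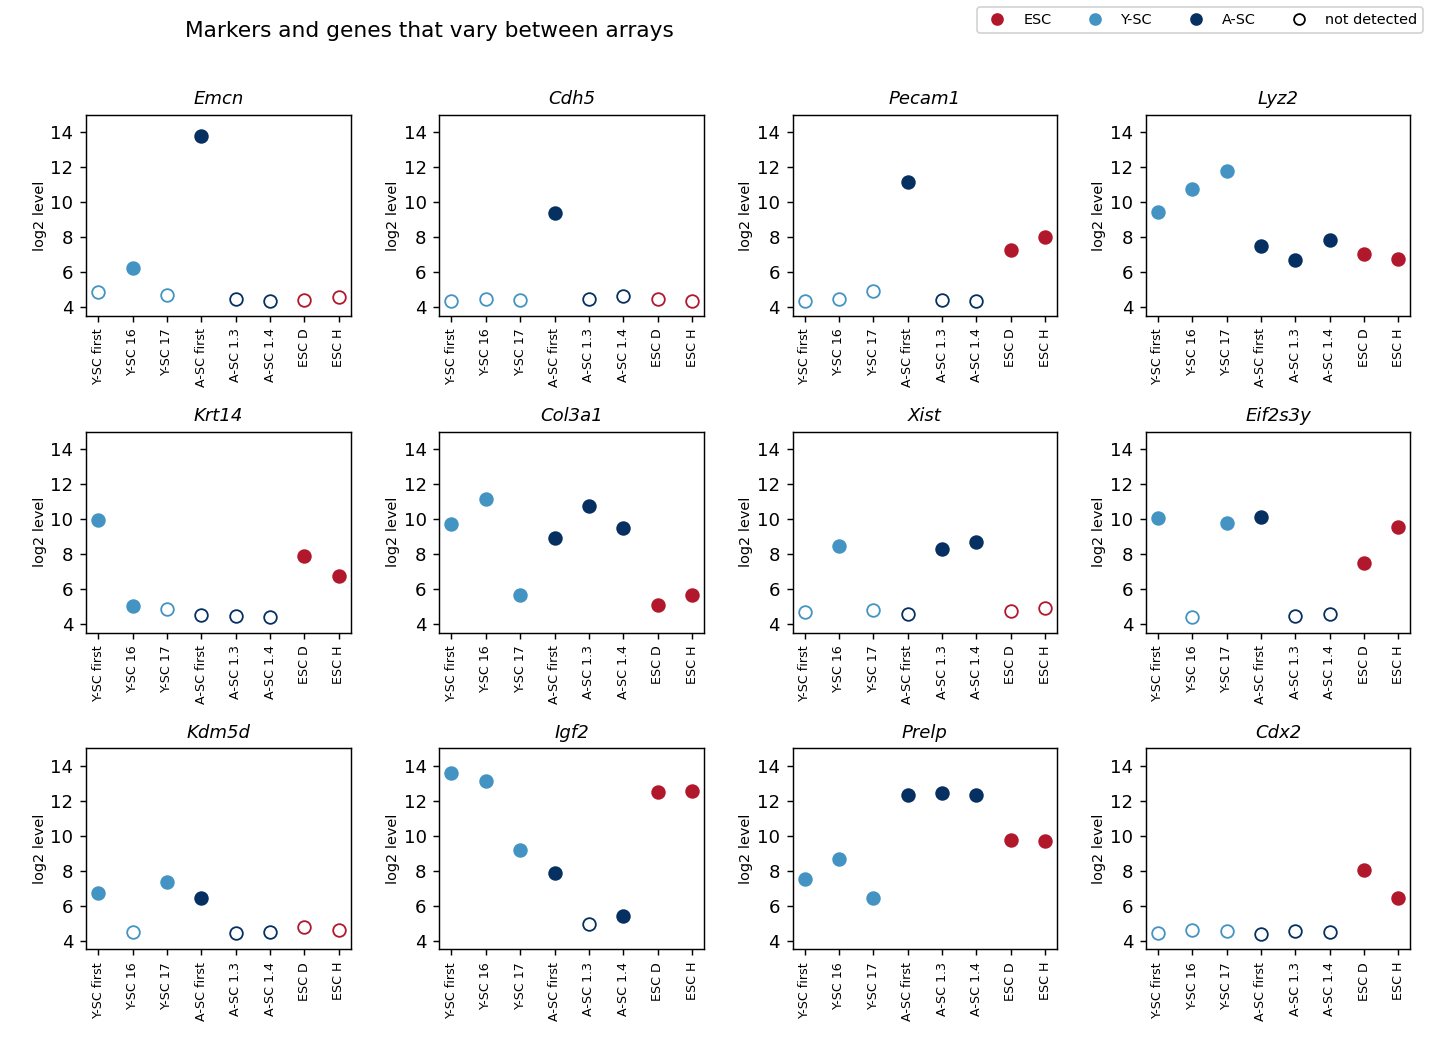
Log2 level on the y axis of 12 genes on the 8 arrays along the x axis. Points are single arrays, coloured by group, and a filled point is a detected probe; Emcn and Cdh5 are high on A-SC first, Lyz2 on the Y-SC arrays, Krt14 on Y-SC first and ESC, and the Xist probe shown is detected on 3 fibroblast arrays where Eif2s3y and Kdm5d are not.

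ESC and fibroblasts differed in 4398 of 9300 genes, nearly as many higher as lower. The test covered 13609 probes detected on every array of at least 1 of the 3 groups, and 46.3% of the probes were called. Among genes, 2283 were higher in ESC (24.5% of those tested) and 2115 lower (22.7%), and 1563 and 1558 of them differed by at least 2-fold. At 16-fold or more the counts parted, with 111 genes higher and 29 lower. The ESC and fibroblast arrays did not overlap for 52.9% of genes, and the median difference of all genes was 0.02. Against each fibroblast group alone, 37.1% of genes were called for Y-SC and 45.5% for A-SC, and 32.7% were called the same way against both. Between the fibroblast groups 0.516% of genes were called. Since a gene seen in ESC alone enters the test through ESC and has to differ, listed genes are also counted among the 6977 genes detected on all 8 arrays, where 21.0% were higher and 25.2% lower. Without ESC H 3381 probes were called and without ESC D 3855, in place of 6307.

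**Figure D2:**
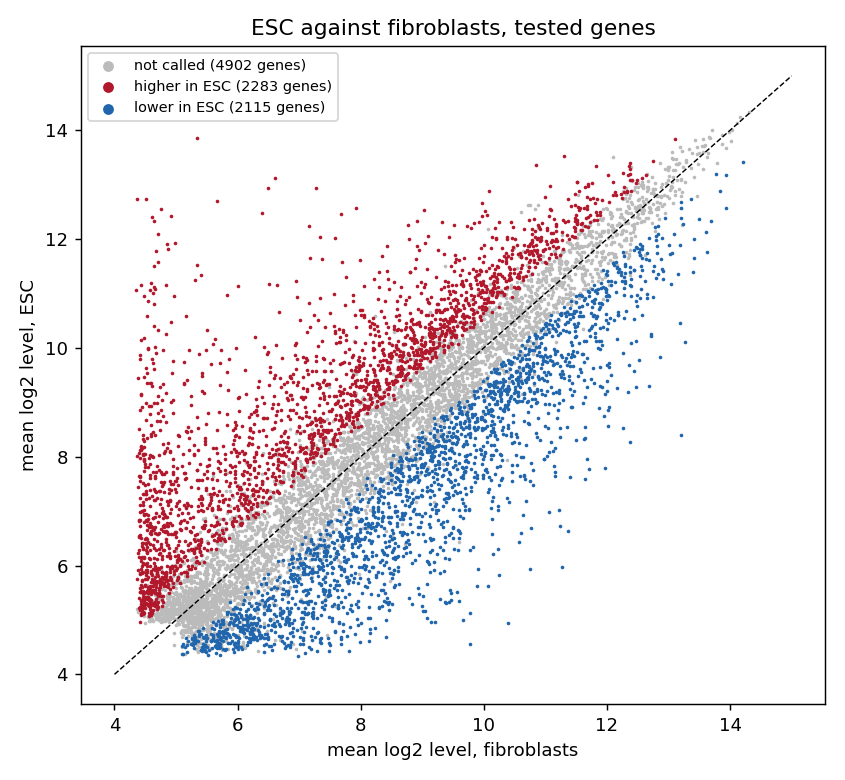
Mean log2 level of the 2 ESC arrays on the y axis against that of the fibroblasts (mean of the Y-SC and A-SC means) on the x axis, 1 point a gene for 9300 genes. Red points are the 2283 genes higher in ESC, blue points the 2115 lower and grey points those not called; genes far above the diagonal outnumber genes far below it.

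The 12 genes with the widest gaps in favour of ESC, among those whose probes all moved one way and whose arrays did not overlap, had varied known roles. Dppa5a, an RNA-binding protein of early embryos and germ cells, was at 13.79 on ESC D and 13.94 on ESC H and from 4.95 to 5.76 (median 5.35) on the fibroblast arrays, a difference of 8.52 ± 0.70 (adjusted p = 4.74e-06). Dppa4, which binds chromatin in pluripotent cells, stood at 12.59 on ESC D and 12.88 on ESC H and from 4.26 to 4.48 (median 4.39) on the fibroblast arrays and was at least 201-fold higher (adjusted p = 7.97e-10). Both were high on each ESC array and near or below the detection limit in every fibroblast sample. Esrrb, an orphan nuclear receptor that upholds the naive state, was at 12.85 on ESC D and 12.64 on ESC H and from 4.37 to 4.65 (median 4.49) on the fibroblast arrays and was at least 202-fold higher (adjusted p = 5.48e-10). Ooep, an oocyte and early embryo protein, differed by 7.80 ± 0.35 (adjusted p = 2.81e-08). Trh, the precursor of thyrotropin-releasing hormone, was at least 160.1-fold higher (adjusted p = 5.39e-06), and L1td1, derived from a LINE-1 element and coding for an RNA-binding protein, was at least 104-fold higher (adjusted p = 2.87e-09). Also among the 12 highest were Sall4, Nanog, Tfap2c, Krt8 and Rhox5, which are described with their groups, and Bex4, a small X-linked protein, at 7.51 ± 0.53 (adjusted p = 1.35e-06).

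**Figure D3:**
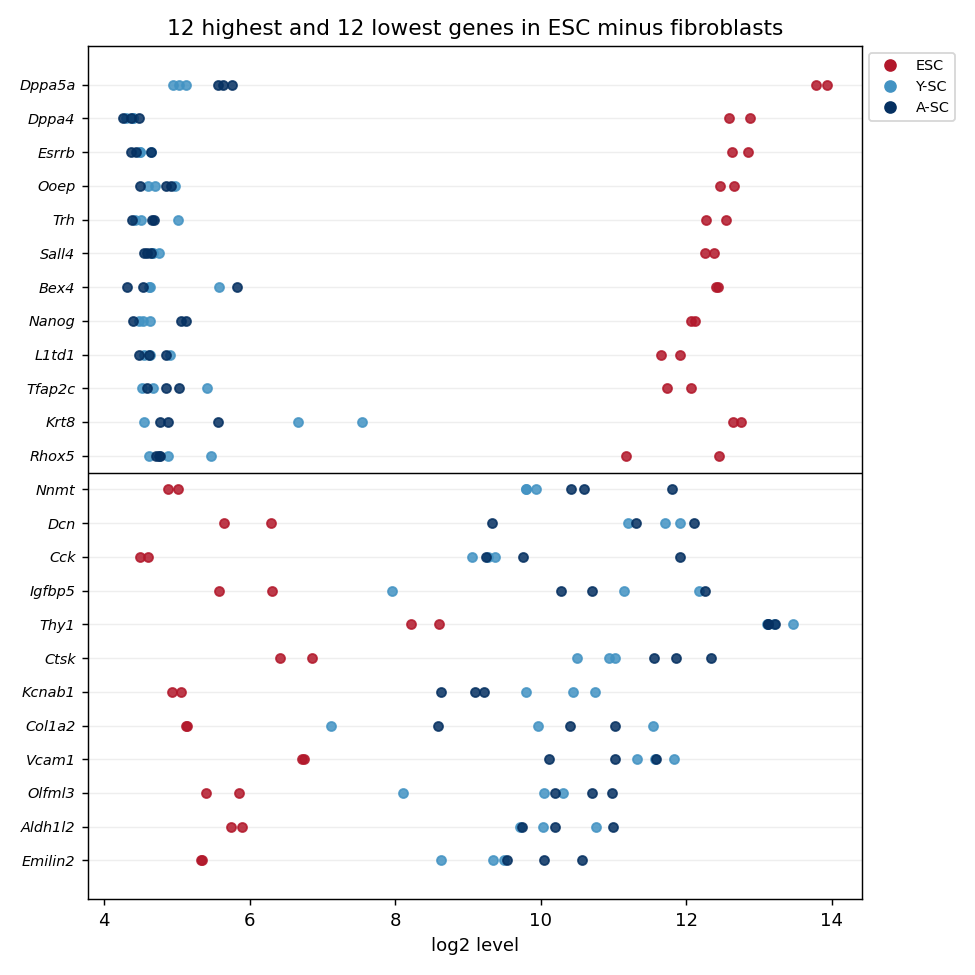
Log2 level on the x axis of the 12 genes highest and the 12 lowest in ESC minus fibroblasts, 1 row a gene, with 1 point for each of the 8 arrays coloured by group. In each row the 2 ESC points lie apart from all 6 fibroblast points, which the rule for choosing these genes required.

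Of 23 tested transcription factors of the pluripotency network, 20 were higher in ESC, 1 was lower and 2 were not called, with a median difference of 3.61 (7 higher and 1 lower of the 10 detected on all 8 arrays). Pou5f1 was at 12.26 on ESC D and 11.58 on ESC H and from 4.61 to 5.29 (median 4.96) on the fibroblast arrays, with a difference of 6.94 ± 0.26 (adjusted p = 7.99e-09), and 2 of 3 A-SC arrays and none of the Y-SC arrays detected it. Nanog, the homeobox factor that lowers the need for LIF, was at 12.12 on ESC D and 12.07 on ESC H and from 4.40 to 5.12 (median 4.58) on the fibroblast arrays and differed by 7.39 ± 0.38 (adjusted p = 9.89e-08). Sox2, the partner of Oct4 on DNA, was at 9.11 on ESC D and 9.46 on ESC H and from 4.50 to 4.96 (median 4.77) on the fibroblast arrays, at least 18.3-fold higher (adjusted p = 1.16e-06). The ESC values of all 3 lay above every fibroblast value. The zinc finger factors Sall4 and Zscan10 were at least 151-fold higher (adjusted p = 8.48e-09) and at least 24.9-fold higher (adjusted p = 3.72e-07), with Zscan10 at 9.53 and 9.92 on the ESC arrays. Zfp42, known as Rex1 and used as a marker of naive cells, differed by 5.93 ± 0.34 (adjusted p = 2.15e-07), and Utf1, a chromatin-bound factor of undifferentiated cells, was at least 45.1-fold higher (adjusted p = 3.52e-06). Gbx2, a homeobox factor downstream of LIF, differed by 5.16 ± 0.72 (adjusted p = 2.14e-04), and Tcl1, a co-activator of AKT, was at least 21.9-fold higher (adjusted p = 1.24e-08).

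The other factors used for reprogramming did not share this pattern. Klf4, a zinc finger factor that fibroblasts also make, was at 10.16 on ESC D and 9.60 on ESC H and from 8.76 to 9.90 (median 9.32) on the fibroblast arrays, so the groups overlapped. Its difference of 0.58 ± 0.36 (adjusted p = 0.202) was not called, except with array weights (0.72, adjusted p = 0.0457). Myc, a driver of growth, was at 5.42 on ESC D and 5.55 on ESC H and from 5.87 to 7.89 (median 6.86) on the fibroblast arrays and lower in ESC at -1.34 ± 0.39 (adjusted p = 0.0154). That call was lost with ESC D left out (adjusted p = 0.106) or ESC H (adjusted p = 0.085). With export format as a block the Myc difference was -0.65 (adjusted p = 0.147) and in the first format only -0.66 (adjusted p = 0.0653), not called in either. Etv4, an ETS factor in FGF signalling and no reprogramming factor, differed by 0.88 ± 0.46 (adjusted p = 0.139) and was not called. It was called with export format as a block (1.50, adjusted p = 0.0348) and in the first format only (1.49, adjusted p = 0.0257).

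Because Oct4 and Sox2 bind adjoining octamer and SOX motifs, the promoters of the called factors were searched in the RefSeq promoter table of build GRCm38.p6, over the 250 bases before the start and on both strands. The octamer core TTTGCAT stood in 3 of the 16 with an entry and in 4.12% of all 32851 promoters, and the SOX motif ACAATG in 2 of 16 and in 10.7% of all. Here and below members are counted as genes, holding a motif if any of their promoters did. The share of all is over single promoters, so the units differ. The stretches around the octamer matches are shown, because they belong to 3 of the ESC markers, with the motifs in capitals.
Nanog, chr6:122707369-122707472, + strand: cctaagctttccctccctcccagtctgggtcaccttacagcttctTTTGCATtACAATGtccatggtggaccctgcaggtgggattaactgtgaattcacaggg
Sox2, chr3:34649851-34649947, + strand: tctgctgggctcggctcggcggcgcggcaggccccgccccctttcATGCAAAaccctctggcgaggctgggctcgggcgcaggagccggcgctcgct
Zfp42, chr8:43307143-43307239, - strand: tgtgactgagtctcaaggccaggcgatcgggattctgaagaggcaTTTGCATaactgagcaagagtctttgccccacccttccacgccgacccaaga
In the Nanog promoter the octamer core is followed after 1 base by the SOX motif, 75 to 62 bases before the start. Sox2 holds the core on the opposite strand. A match of letters is a description and no evidence of binding in these cells.

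Of 13 Dppa and other oncofetal genes, 11 were higher in ESC and 1 lower, with a median difference of 6.45 (3 of the 4 detected on all arrays were higher). Dppa3, also called Stella, which protects maternal methylation in the zygote, was at least 67.3-fold higher (adjusted p = 4.24e-10). Lin28a, which blocks maturation of let-7 miRNAs, was at 9.22 and 8.89 in ESC and at least 15.6-fold higher (adjusted p = 1.86e-07). Fbxo15, an F-box protein dispensable for ESC and used as a reporter of pluripotency, was at least 90.3-fold higher (adjusted p = 2.87e-09). Igf2bp1, an RNA-binding protein of embryonic tissue, was at 11.37 on ESC D and 11.77 on ESC H and from 4.84 to 9.87 (median 8.0) on the fibroblast arrays and differed by 3.87 ± 0.43 (adjusted p = 3.84e-05). It was higher on the Y-SC arrays (9.12 to 9.87) than on A-SC (4.84 to 6.88), with a difference of A-SC minus Y-SC of -3.62 ± 0.43 (adjusted p = 0.00319).

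Among 25 genes of NODAL, LIF, FGF and WNT signalling, 13 were higher and 5 lower in ESC, beside 24.5% and 22.7% of all tested genes. Of the 15 detected on all 8 arrays 5 were higher and 5 lower. The NODAL ligand Gdf3 was at least 60.6-fold higher (adjusted p = 4.47e-08), Nodal itself at least 14.8-fold higher (adjusted p = 2.36e-05), and Lefty2, a secreted NODAL inhibitor that NODAL signalling induces, at least 58.3-fold higher (adjusted p = 8.48e-09). The co-receptor Tdgf1 (Cripto) was at least 7.81-fold higher (adjusted p = 2.87e-04) and the receptor Acvr2b differed by 4.51 ± 0.33 (adjusted p = 1.64e-06). These 5 genes of the NODAL pathway were named as called members with wide gaps, so their common direction was fixed by that choice. No fibroblast array detected Gdf3, Nodal, Lefty2 or Tdgf1, which entered the test through ESC. Axin2, a feedback inhibitor and target of WNT, was at 9.37 on ESC D and 9.05 on ESC H and from 4.94 to 5.80 (median 5.42) on the fibroblast arrays and differed by 3.79 ± 0.25 (adjusted p = 7.42e-07). The LIF co-receptor Il6st (gp130) was at 6.67 on ESC D and 7.14 on ESC H and from 7.75 to 9.75 (median 8.62) on the fibroblast arrays, lower in ESC at -1.77 ± 0.37 (adjusted p = 0.00251), as was the kinase Jak1 at -2.21 ± 0.24 (adjusted p = 3.67e-05). Stat3, their downstream factor, was not called (-0.48 ± 0.24, adjusted p = 0.126), and neither was Bmp4 (2.23 ± 1.66, adjusted p = 0.289), which ranged from 5.12 to 12.39 among the fibroblasts. Stat3 was called lower without Y-SC 17 (adjusted p = 0.0277) and Bmp4 higher without A-SC first (adjusted p = 0.0126). The sign of Bmp4 turned with export format as a block (-0.99, adjusted p = 0.56), and with fibroblasts of the second format only it was 3.84 (adjusted p = 0.00482). Stat3 was also called lower in the first format only (-0.67, adjusted p = 0.0448), with probes averaged (0.0254) and with array weights (0.0222). Wnt5a, a ligand of mesenchymal cells, was lower at -2.62 ± 1.00 (adjusted p = 0.04998), a call lost whichever of the 8 arrays was left out (adjusted p = 0.0518 to 0.255) and with export format as a block (0.214).

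Germline genes that DNA methylation keeps silent in somatic cells were on the ESC side, with 12 of 13 tested higher and none lower. Tex19.1, which restrains retrotransposons in germ cells and placenta, was at 10.70 and 11.52 and was at least 65-fold higher (adjusted p = 7.14e-06). Tdrd12, of the piRNA pathway, was at least 39.8-fold higher (adjusted p = 6.66e-09), and the X-linked homeobox gene Rhox9 at least 34.2-fold higher (adjusted p = 7.99e-09). Only 2 of the 13 were detected on all 8 arrays, and 1 of these was higher, so most of this count rests on genes that the fibroblast arrays did not all detect. Dazl, a germ cell RNA-binding protein, was barely above the limit in ESC (5.36 and 5.89) and was at least 1.45-fold higher (adjusted p = 5.71e-04). Rhox5, a homeobox gene of the same X-linked cluster as Rhox9, differed by 6.94 ± 0.93 (adjusted p = 1.57e-04).

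Markers of early lineages were present beside the pluripotency genes. Of 12 tested genes of mesoderm and primitive streak, 11 were higher in ESC, all through detection in ESC, since none was detected on all 8 arrays. Fgf8, a growth factor of the streak, was at 10.07 on ESC D and 8.88 on ESC H and was at least 20.9-fold higher (adjusted p = 5.58e-06). The homeobox genes Evx1 (8.86 and 7.90) and Mixl1 (8.51 and 7.62) were at least 9.81-fold higher (adjusted p = 2.36e-05) and at least 7.87-fold higher (adjusted p = 3.47e-07). The summed signal of the list was 3626 on ESC D, 1988 on ESC H and 305.9 to 350.1 on the fibroblast arrays. Of 7 primed epiblast markers 5 were higher and 1 lower, and of the 2 detected on all 8 arrays 1 was higher and 1 lower. Pou3f1, a POU factor of the later epiblast, was at least 9.51-fold higher (adjusted p = 2.88e-04). Otx2 was at least 7.67-fold higher (adjusted p = 0.00298), a call lost without ESC H (adjusted p = 0.0511). Of 11 trophectoderm markers 8 were higher and 2 lower, and of the 2 detected on all 8 arrays none was higher and 1 lower. The higher ones were led by Tfap2c, an AP-2 factor shared with germ cells (7.06 ± 0.46, adjusted p = 6.95e-07). Of 4 neural markers none was higher and 1 lower, and neither of the 2 detected on all 8 arrays was called. Of 7 markers of the 2-cell-like state 1 was tested and not called. Over all tested genes 24.5% were higher and 22.7% lower.

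Dnmt3b, an enzyme that places DNA methylation anew, was far above the fibroblasts, and Dnmt3a, its relative, was not among the tested genes. Dnmt3b was at 12.97 on ESC D and 13.27 on ESC H and from 5.83 to 7.16 (median 6.74) on the fibroblast arrays, a difference of 6.51 ± 0.56 (adjusted p = 6.18e-06). Dnmt3l, its cofactor without enzyme activity, was at 12.57 and 13.31 in ESC, 5.45 to 6.12 on Y-SC and 6.94 to 7.60 on A-SC, a difference of 6.45 ± 0.26 (adjusted p = 1.30e-08) for ESC minus fibroblasts and of 1.43 ± 0.26 (adjusted p = 0.0364) for A-SC minus Y-SC. The last was called in 4 of 8 fits with 1 array left out and was not without Y-SC 16 (adjusted p = 0.0657), Y-SC 17 (0.102), A-SC 1.3 (0.0807) or A-SC 1.4 (0.0864). The maintenance enzyme Dnmt1 differed by 1.33 ± 0.40 (adjusted p = 0.0166), and its call was lost without ESC D (adjusted p = 0.0642) or ESC H (adjusted p = 0.144) and with export format as a block (adjusted p = 0.0793). Of 9 tested enzymes and readers 5 were higher and 1 lower, beside 24.5% and 22.7% of all tested genes.

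Among Polycomb, BAF and lamina genes some members were higher and others lower. Of 19 Polycomb genes 10 were higher and 2 lower, beside 24.5% and 22.7% of all tested genes (9 and 2 of 16 detected on all arrays). Epop, an Elongin-binding partner of PRC2, was at 12.48 on ESC D and 12.46 on ESC H and from 7.46 to 7.95 (median 7.68) on the fibroblast arrays, a difference of 4.79 ± 0.20 (adjusted p = 1.87e-08), and the PRC2 accessory subunit Mtf2 differed by 3.19 ± 0.29 (adjusted p = 8.88e-06). Among the PRC1 chromodomain proteins Cbx7 was higher (4.07 ± 0.55, adjusted p = 1.78e-04) and Cbx8 lower (-1.61 ± 0.37, adjusted p = 0.00422). The ring finger subunit Pcgf6 was higher (2.14 ± 0.30, adjusted p = 2.02e-04) where Bmi1 was lower (-2.22 ± 0.32, adjusted p = 2.44e-04). Cbx8 was not called in the first export format only (-1.20, adjusted p = 0.0532). In the BAF remodelling complex the ATPase Smarca2 (BRM) was at 7.67 on ESC D and 7.70 on ESC H and from 9.55 to 10.77 (median 10.16) on the fibroblast arrays, lower in ESC at -2.51 ± 0.21 (adjusted p = 5.62e-06). The other ATPase Smarca4 (BRG1) was not called (0.40 ± 0.20, adjusted p = 0.121), except with array weights (adjusted p = 0.0228) and without Y-SC 17 and A-SC first (0.0478). At the nuclear lamina Lmnb1 was higher (2.45 ± 0.50, adjusted p = 0.00236), as was the lamin B receptor Lbr (2.01 ± 0.35, adjusted p = 7.82e-04), and Lmna, the lamin A gene, was at 10.76 on ESC D and 10.46 on ESC H and from 12.32 to 12.71 (median 12.64) on the fibroblast arrays and lower (-1.96 ± 0.25, adjusted p = 1.24e-04). Of 18 genes that silence retroviruses 13 were higher and none lower, beside the same shares of all genes (11 higher of 16 detected on all arrays). Among the higher ones were Trim28 (KAP1), at 1.53 ± 0.21 (adjusted p = 2.11e-04), and the H3K9 methyltransferase Setdb1, at 1.29 ± 0.24 (adjusted p = 0.00115).

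The epithelial and mesenchymal sides were opposite. Of 25 tested epithelial genes 23 were higher in ESC and none lower, with a median difference of 2.42, although only 3 were detected on all 8 arrays (1 of them higher). Cdh1, which codes for E-cadherin, was at 10.52 on ESC D and 10.65 on ESC H and from 4.80 to 5.68 (median 5.04) on the fibroblast arrays, a difference of 5.42 ± 0.25 (adjusted p = 4.07e-08). Krt8, a keratin of simple epithelia, was at 12.75 on ESC D and 12.65 on ESC H and from 4.55 to 7.54 (median 5.22) on the fibroblast arrays, a difference of 7.04 ± 0.93 (adjusted p = 1.41e-04), and its partner Krt18 differed by 5.93 ± 0.95 (adjusted p = 5.05e-04). Among the fibroblast arrays both keratins were highest on Y-SC first, where 10 of 14 keratinocyte markers were detected. The tight junction gene Cldn6 was at least 85.9-fold higher (adjusted p = 6.05e-05) and the splicing regulator Esrp1 at least 68.5-fold higher (adjusted p = 7.67e-08). In mesenchymal genes the count ran the other way, with 20 of 23 lower and 2 higher (19 lower of 20 detected on all arrays). Thy1, a surface protein used to sort fibroblasts, was at 8.60 on ESC D and 8.21 on ESC H and from 13.11 to 13.47 (median 13.17) on the fibroblast arrays, a difference of -4.80 ± 0.44 (adjusted p = 9.76e-06). The receptor Pdgfra differed by -3.98 ± 0.68 (adjusted p = 7.46e-04), the hyaluronan receptor Cd44 by -3.94 ± 0.44 (adjusted p = 4.68e-05) and the helix-loop-helix factor Twist2 by -2.99 ± 0.60 (adjusted p = 0.00208). Vim, the intermediate filament of mesenchymal cells, was at 12.17 on ESC D and 11.60 on ESC H and from 12.78 to 13.74 (median 13.13) on the fibroblast arrays and differed by -1.3 ± 0.31 (adjusted p = 0.00514), a call lost without ESC H (adjusted p = 0.0868) and in the first export format only (-0.83, adjusted p = 0.105). The 2 that were higher in ESC were the ectonucleotidase Nt5e (CD73), at 2.77 ± 0.52 (adjusted p = 0.0014), and the peptidase Mme (CD10), at 2.73 ± 0.39 (adjusted p = 2.29e-04).

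Collagens and the enzymes that process them were lower as a group, 21 of 22 tested (17 of 18 detected on all arrays), with a median difference of -2.14. Col1a2, a chain of type I collagen, was at 5.12 on ESC D and 5.14 on ESC H and from 7.11 to 11.55 (median 10.19) on the fibroblast arrays, a difference of -4.64 ± 0.94 (adjusted p = 0.00222). Col1a1, the other chain, was at 10.21 on ESC D and 10.22 on ESC H and from 11.22 to 13.52 (median 12.97) on the fibroblast arrays and differed by -2.50 ± 0.55 (adjusted p = 0.0034). Both chains lay below every fibroblast array on both ESC arrays. Col3a1 was at 5.09 on ESC D and 5.67 on ESC H and from 5.63 to 11.15 (median 9.61) on the fibroblast arrays, with the lowest value on Y-SC 17, and its difference of -3.90 ± 1.06 (adjusted p = 0.0109) was not called without ESC D (adjusted p = 0.0951) or ESC H (adjusted p = 0.0642). The cross-linking enzyme Loxl1 differed by -2.86 ± 0.40 (adjusted p = 2.16e-04).

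Of 22 other matrix genes 16 were lower and none higher (15 lower of 19 detected on all arrays). Dcn, the proteoglycan decorin that coats collagen fibrils, was at 6.30 on ESC D and 5.64 on ESC H and from 9.33 to 12.10 (median 11.51) on the fibroblast arrays, a difference of -5.29 ± 0.85 (adjusted p = 5.26e-04). Thbs2, an adhesive matrix protein, differed by -4.11 ± 0.35 (adjusted p = 5.59e-06). Emilin2, an elastic fibre protein, was lower at -4.26 ± 0.30 (adjusted p = 1.18e-06) and Olfml3, a secreted olfactomedin protein, at -4.43 ± 0.95 (adjusted p = 0.00303). Basement membrane genes divided. The laminin chain Lama1 was at 7.77 on ESC D and 8.36 on ESC H and from 4.36 to 5.71 (median 4.65) on the fibroblast arrays, higher in ESC by 3.26 ± 0.44 (adjusted p = 1.64e-04), and agrin (Agrn) by 1.72 ± 0.38 (adjusted p = 0.00377), while Col4a1, at 9.83 on ESC D and 9.85 on ESC H and from 12.58 to 13.06 (median 12.93) on the fibroblast arrays, Col4a2 and Nid1 were lower at -3.02 ± 0.34 (adjusted p = 4.74e-05), -3.19 ± 0.34 (adjusted p = 3.37e-05) and -3.30 ± 0.52 (adjusted p = 4.75e-04). Of 14 such genes 4 were higher and 8 lower, beside 24.5% and 22.7% of all tested genes. Among matrix proteases 11 of 20 were lower and none higher (9 lower of 18 detected on all arrays). They were led by the collagen-degrading cathepsin Ctsk at 6.86 on ESC D and 6.42 on ESC H and from 10.50 to 12.34 (median 11.29) on the fibroblast arrays, a difference of -4.73 ± 0.51 (adjusted p = 3.60e-05).

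**Figure D4:**
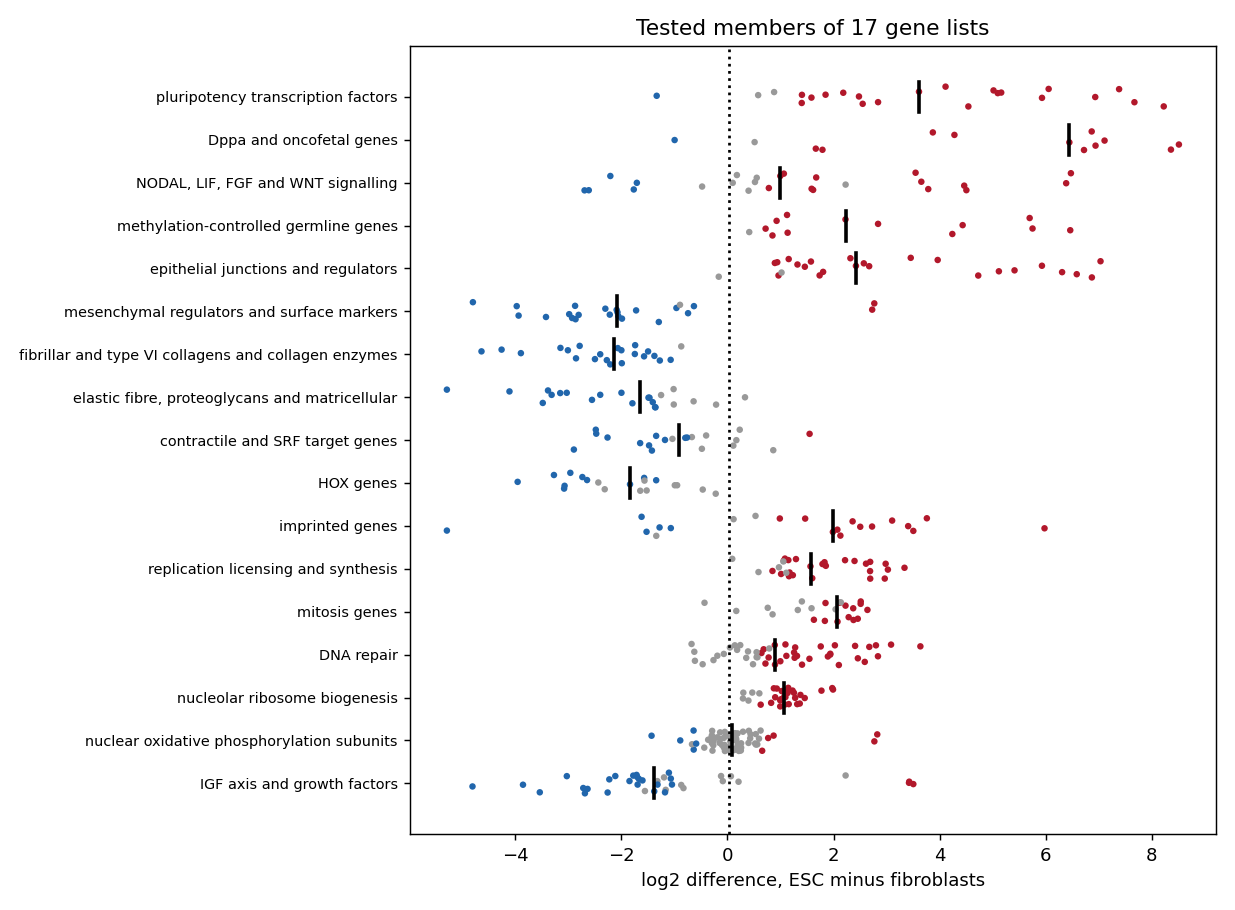
Log2 difference of ESC minus fibroblasts on the x axis for the tested genes of 17 lists, 1 row a list and 1 point a gene. Red points are genes called higher in ESC, blue points called lower and grey points not called, the black bar is the list's median, and the dotted line is the median of all genes at 0.02; the epithelial and the collagen row lie on opposite sides of it.

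Actin-based contraction genes were lower in part, 11 of 20, with 1 higher (9 lower and 1 higher of 17 detected on all arrays). Tagln, the smooth muscle protein SM22, was at 8.90 on ESC D and 8.52 on ESC H and from 10.46 to 11.77 (median 11.24) on the fibroblast arrays, a difference of -2.48 ± 0.40 (adjusted p = 5.63e-04), and caldesmon (Cald1) differed by -2.26 ± 0.43 (adjusted p = 0.00138). Acta2, the smooth muscle actin of contractile fibroblasts, was at 13.40 on ESC D and 13.43 on ESC H and from 14.05 to 14.33 (median 14.23) on the fibroblast arrays and differed by -0.80 ± 0.19 (adjusted p = 0.00612). Cnn2, a calponin, was at 9.07 on ESC D and 9.19 on ESC H and from 10.40 to 10.97 (median 10.47) on the fibroblast arrays, a difference of -1.43 ± 0.48 (adjusted p = 0.0289) that was not called without ESC D (adjusted p = 0.152) or ESC H (adjusted p = 0.129), in the first or second export format alone (0.101 and 0.0655) or without a filter (0.0705). The factor SRF controls many such genes through the CArG box. It stood in a promoter of 1 of the 9 called members with an entry and in 1.47% of all promoters. That promoter is shown, with the box in capitals, as the instance among the lower genes.
Cnn2, chr10:79988499-79988598, + strand: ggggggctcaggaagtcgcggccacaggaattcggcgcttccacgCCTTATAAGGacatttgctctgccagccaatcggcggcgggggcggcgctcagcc
Caveola, annexin and galectin genes were lower in 18 of 23 cases and higher in none (17 lower of 21 detected on all arrays). Cav1, the coat protein of caveolae, was at 11.39 on ESC D and 11.49 on ESC H and from 12.64 to 13.12 (median 12.90) on the fibroblast arrays and differed by -1.45 ± 0.28 (adjusted p = 0.00173). Cavin3 differed by -3.77 ± 0.51 (adjusted p = 1.75e-04) and Anxa1, a phospholipid-binding protein that limits inflammation, by -3.02 ± 0.38 (adjusted p = 1.06e-04).

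Genes of body position were lower in ESC where they were called, with 1 exception. Of 38 HOX genes on the array 19 were tested, and 10 were lower (14 without Y-SC 17 and A-SC first) and none higher in ESC. Over all tested genes 22.7% were lower. Of the 9 HOX genes detected on all 8 arrays 6 were lower, where 25.2% of all such genes were. Hoxb2 was at 5.71 on ESC D and 4.95 on ESC H and from 7.76 to 9.17 (median 8.42) on the fibroblast arrays, a difference of -3.07 ± 0.51 (adjusted p = 6.33e-04), Hoxb4 differed by -2.65 ± 0.45 (adjusted p = 7.45e-04) and Hoxb5 by -3.08 ± 0.49 (adjusted p = 5.05e-04). Hoxc6 was the widest gap that was not called (-2.44 ± 1.07, adjusted p = 0.0824), at 7.46 to 11.61 among fibroblasts, and it was called without A-SC 1.4 (adjusted p = 0.0394). Hoxc6 was also called with export format as a block (-3.64, adjusted p = 0.0377), in the 8 arrays alone (0.0468) and with array weights (0.0495). Of 23 limb and dermal transcription factors 14 were lower (8 of the 13 detected on all arrays). Among them were Nfix, a nuclear factor I protein, at 7.19 on ESC D and 6.86 on ESC H and from 10.34 to 12.23 (median 11.05) on the fibroblast arrays and a difference of -4.19 ± 0.41 (adjusted p = 1.56e-05), and the homeobox gene Meis1 at -3.08 ± 0.43 (adjusted p = 2.06e-04). Tbx3, a T-box factor of limb patterning that also acts in ESC, was the 1 higher (1.4 ± 0.35, adjusted p = 0.00701), not called without ESC D (adjusted p = 0.094).

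Imprinted genes, expressed from 1 parental copy, went both ways, 13 higher and 5 lower of 21, beside 24.5% and 22.7% of all tested genes. Of the 10 detected on all 8 arrays 4 were higher and 5 lower. Their median difference was -0.48, against 1.99 over the 21. Phlda2, which restrains placental growth, was at 11.28 on ESC D and 10.62 on ESC H and from 4.48 to 6.63 (median 4.66) on the fibroblast arrays, a difference of 5.98 ± 0.52 (adjusted p = 6.75e-06). Igf2, a fetal growth factor, was at 12.52 and 12.56 on ESC, at 13.62, 13.15 and 9.21 on Y-SC and at 7.86, 4.95 and 5.43 on A-SC. ESC thus lay within the range of the embryonic fibroblasts and above the tail tip fibroblasts. The difference was 3.51 ± 1.07 (adjusted p = 0.0189) for ESC minus fibroblasts and -5.92 ± 1.07 (adjusted p = 0.0364) for A-SC minus Y-SC. The first was not called without ESC D (adjusted p = 0.107) or ESC H (adjusted p = 0.117). That difference was 1.80 (adjusted p = 0.188) with export format as a block and 1.93 (adjusted p = 0.0519) in the first format only, and its adjusted p was 0.163 with the fibroblasts as 1 group and 0.0571 without a filter. The A-SC minus Y-SC call held in 2 of 8 fits with 1 array left out, with an adjusted p of up to 0.167. Grb10, an adaptor that dampens insulin signalling, was lower at -1.62 ± 0.26 (adjusted p = 5.74e-04).

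Replication genes were higher in ESC with few exceptions, 25 of 30 tested, none lower, and 21 of 26 among those detected on all arrays. Mcm10, which activates the replicative helicase, was at 11.50 on ESC D and 11.88 on ESC H and from 6.67 to 9.79 (median 8.41) on the fibroblast arrays, a difference of 3.34 ± 0.68 (adjusted p = 0.00225). The licensing factor Cdt1 differed by 2.97 ± 0.41 (adjusted p = 2.03e-04), Cdc6 by 2.69 ± 0.57 (adjusted p = 0.00283), the helicase subunit Mcm5 by 2.69 ± 0.59 (adjusted p = 0.00328) and the clamp loader subunit Rfc5 by 2.98 ± 0.59 (adjusted p = 0.0018). The 5 not called were Rpa1 (0.58 ± 0.31, adjusted p = 0.147), Rrm1 (0.09 ± 0.53, adjusted p = 0.904), Rrm2 (0.97 ± 0.53, adjusted p = 0.15), Tyms (1.11 ± 0.47, adjusted p = 0.0752) and Tk1 (1.05 ± 0.87, adjusted p = 0.342). The last 4 make or salvage DNA building blocks, and of these Rrm2 was called without Y-SC first (adjusted p = 0.0027) and Tyms without A-SC 1.3 (adjusted p = 0.0283). Both were also called with array weights (0.042 and 0.0316) and with fibroblasts of the second export format only (0.00403 and 0.0264), and Tyms in the first format only (0.0209) and with probes averaged (0.0129). Mcm6, another helicase subunit, differed by 1.83 ± 0.53 (adjusted p = 0.0145), a call lost without ESC D (adjusted p = 0.124) or ESC H (adjusted p = 0.0651).

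E2F factors drive such genes at the G1 to S transition, so the promoters of the called replication genes were searched for the E2F motif, read as TTTCCCGC, TTTCGCGC or TTTGGCGC. It stood in 5 of the 20 with an entry (Cdc6, Gins3, Mcm5, Mcm6 and Mcm7) and in 1.53% of all promoters. The CCAAT box stood in 14 of 20 and in 33.8% of all, but also in 6 of 9 called contractile genes and 9 of 16 called pluripotency factors. The 3 promoters below each hold a different form or number of the motif, in capitals.
Mcm5, chr8:75109311-75109408, + strand: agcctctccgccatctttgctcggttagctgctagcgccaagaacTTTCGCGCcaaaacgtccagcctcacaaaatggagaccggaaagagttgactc
Mcm6, chr1:128359706-128359860, - strand: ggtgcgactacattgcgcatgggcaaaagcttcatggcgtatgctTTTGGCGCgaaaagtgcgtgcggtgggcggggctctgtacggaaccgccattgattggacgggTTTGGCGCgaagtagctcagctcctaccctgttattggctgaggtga
Cdc6, chr11:98907968-98908065, + strand: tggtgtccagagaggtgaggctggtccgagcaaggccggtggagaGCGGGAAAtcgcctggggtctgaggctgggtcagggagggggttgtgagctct
Mcm6 holds 2 copies, from 110 to 40 bases before the start, and Cdc6 holds the motif on the opposite strand. The E2F genes themselves differed less. E2f5 differed by 1.39 ± 0.20 (adjusted p = 2.70e-04), and the activator genes E2f1 (-0.58 ± 0.25, adjusted p = 0.0732) and E2f3 (0.15 ± 0.29, adjusted p = 0.694) were not called. E2f1 was called lower without A-SC first (adjusted p = 0.0323), without Y-SC 17 and A-SC first (0.0435), with array weights (0.0179) and with fibroblasts of the second export format only (0.0267).

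Of 22 mitosis genes 13 were higher and none lower, beside 24.5% and 22.7% of all tested genes. Against both fibroblast groups 5 of 22 were called the same way, beside 32.7% of all genes. The kinase gene Plk1 was at 11.01 and 11.33 on ESC, 10.75, 8.28 and 6.92 on Y-SC and 8.51, 10.15 and 9.70 on A-SC, in the order first, 16 and 17 and first, 1.3 and 1.4. Its difference of 2.12 ± 0.77 (adjusted p = 0.0407) was not called without ESC D (adjusted p = 0.141), ESC H (adjusted p = 0.207), Y-SC 16 (adjusted p = 0.0717), A-SC first (adjusted p = 0.0635) or A-SC 1.4 (adjusted p = 0.0542). Nor was it called with export format as a block (adjusted p = 0.216), without a filter (0.106), in the 8 arrays alone (0.0762) or without Y-SC 17 and A-SC first (0.0597). Bub1b, of the spindle checkpoint, differed by 2.64 ± 0.64 (adjusted p = 0.00595) and was not called without ESC H (adjusted p = 0.063). Cdk1, the kinase that starts mitosis, ranged from 8.01 to 11.23 among the fibroblasts and was not called (1.4 ± 0.65, adjusted p = 0.0988). It was called without Y-SC first (adjusted p = 0.0241), with array weights (0.0363), in the first export format only (0.0104) and with fibroblasts of the second format only (0.0176).

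Of 23 G1 cyclins, CDKs and CDK inhibitors 10 were higher, 5 lower and 8 not called, beside 24.5% higher and 22.7% lower over all tested genes. Ccne1 (cyclin E1) was at 10.39 on ESC D and 10.50 on ESC H and from 7.24 to 8.99 (median 8.48) on the fibroblast arrays, higher in ESC by 2.23 ± 0.44 (adjusted p = 0.00187). The phosphatase Cdc25a was higher by 1.81 ± 0.31 (adjusted p = 8.25e-04). Ccnd2 (cyclin D2) was at 8.56 on ESC D and 9.15 on ESC H and from 10.86 to 12.79 (median 12.19) on the fibroblast arrays, lower in ESC at -3.15 ± 0.48 (adjusted p = 3.50e-04), and Ccnd1 was not called (-0.20 ± 0.23, adjusted p = 0.485). The kinase inhibitors Cdkn2b (p15), Cdkn2c (p18) and Cdkn1a (p21) were lower at -2.44 ± 0.30 (adjusted p = 7.98e-05), -2.03 ± 0.35 (adjusted p = 8.26e-04) and -1.72 ± 0.21 (adjusted p = 8.76e-05). Among p53 and its targets 4 of 25 were higher and 9 lower, beside 24.5% and 22.7% of all tested genes. Sfn (14-3-3 sigma), which keratinocytes also make, was the highest at 4.80 ± 0.59 (adjusted p = 9.10e-05), and Cd82, a tetraspanin, the lowest at -2.63 ± 0.36 (adjusted p = 1.76e-04).

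DNA repair genes were higher in 29 of 47 cases and lower in none (20 of 38 among those detected on all arrays). Ung, which removes uracil from DNA, was at 11.67 on ESC D and 11.58 on ESC H and from 6.22 to 9.58 (median 8.04) on the fibroblast arrays, a difference of 3.64 ± 0.62 (adjusted p = 7.76e-04). The ligase Lig1 differed by 3.09 ± 0.57 (adjusted p = 0.00118), the mismatch repair gene Msh6 by 2.80 ± 0.31 (adjusted p = 3.90e-05) and Parp1 by 2.46 ± 0.31 (adjusted p = 9.40e-05). Of the BCL2 family, 6 were higher and 5 lower of 14, beside 24.5% and 22.7% of all tested genes. The pro-survival member Mcl1 was higher (1.21 ± 0.25, adjusted p = 0.00251), and Bcl2l2, also pro-survival, was lower (-1.51 ± 0.25, adjusted p = 5.84e-04). In telomere maintenance 7 of 10 were higher, beside 24.5% of all tested genes, led by the helicase Rtel1 (2.06 ± 0.43, adjusted p = 0.00251). The shelterin genes Terf2 (0.17 ± 0.21, adjusted p = 0.539) and Acd (0.17 ± 0.23, adjusted p = 0.569) were not called.

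Nucleolar ribosome biogenesis genes were higher in 27 of 32 cases and lower in none (25 of 30 among those detected on all arrays), by small amounts with a median of 1.07. Ncl, the nucleolin gene, was at 11.57 on ESC D and 11.73 on ESC H and from 8.93 to 10.41 (median 9.71) on the fibroblast arrays, a difference of 1.98 ± 0.29 (adjusted p = 2.77e-04), and the polymerase subunit Polr1c differed by 1.77 ± 0.26 (adjusted p = 3.02e-04). In the RNA exosome and other RNA decay genes 6 of 19 were higher (24.5% of all genes were) and none lower. The helicase Mtrex (2.61 ± 0.37, adjusted p = 2.27e-04) and the core subunit Exosc5 (1.69 ± 0.20, adjusted p = 6.13e-05) were higher. Exosc1 (0.01 ± 0.24, adjusted p = 0.986) and Exosc2 (0.56 ± 0.45, adjusted p = 0.325) were not called. Exosc2 was called in the first export format only (1.12, adjusted p = 0.036).

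Most enzymes of energy metabolism were not called, where 4398 of all 9300 genes were, and single genes stood out. Slc2a3, the glucose transporter GLUT3, was at 13.05 on ESC D and 12.84 on ESC H and from 6.60 to 7.76 (median 7.35) on the fibroblast arrays, a difference of 5.67 ± 0.47 (adjusted p = 4.81e-06). Slc2a1, the common transporter GLUT1, differed by 1.49 ± 0.32 (adjusted p = 0.00314), Hk2 (hexokinase) by 1.29 ± 0.28 (adjusted p = 0.00345) and Pdk1, a kinase that inhibits pyruvate dehydrogenase, by 2.96 ± 0.28 (adjusted p = 1.32e-05). Of 23 genes of glucose uptake and glycolysis 6 were higher and 2 lower, beside 24.5% and 22.7% of all tested genes. The 15 not called included Gapdh (0.14 ± 0.18, adjusted p = 0.537) and Pgk1 (0.08 ± 0.27, adjusted p = 0.829). Nuclear genes of oxidative phosphorylation were called in 5 of 70 cases in each direction, with a median of 0.09. The heart and muscle cytochrome oxidase subunit Cox7a1 was the second highest of them (2.77 ± 0.31, adjusted p = 4.49e-05), after the testis form Cox6b2 (2.83 ± 0.45, adjusted p = 5.14e-04). Gldc, which splits glycine for one-carbon units, was at 12.13 on ESC D and 12.81 on ESC H and from 5.14 to 8.53 (median 6.19) on the fibroblast arrays, a difference of 6.08 ± 0.66 (adjusted p = 3.60e-05). Of 16 serine and one-carbon enzymes 4 were higher, 1 lower (4 without Y-SC 17 and A-SC first) and 11 not called, such as Phgdh (-0.55 ± 0.53, adjusted p = 0.416). Glutathione and antioxidant genes were higher in 7 and lower in 12 of 42, near the 24.5% and 22.7% of all genes. The peroxidase Gpx2 differed by 3.28 ± 0.21 (adjusted p = 6.63e-07) and the peroxidase Gpx8 of the endoplasmic reticulum by -2.35 ± 0.39 (adjusted p = 6.19e-04), and the synthesis enzymes Gclc (0.02 ± 0.20, adjusted p = 0.945) and Gclm (0.12 ± 0.22, adjusted p = 0.681) were not called.

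Lists of secreted signals were mostly lower in ESC, and those of interferon response and antigen presentation went both ways. Of 25 chemokines, cytokines and receptors 16 were lower and 1 higher (19 and 2 without Y-SC 17 and A-SC first). Of the 16 detected on all 8 arrays 11 were lower and none higher. Ccl2, which attracts monocytes, was at 6.37 on ESC D and 6.24 on ESC H and from 9.14 to 12.45 (median 9.60) on the fibroblast arrays, a difference of -3.93 ± 0.81 (adjusted p = 0.0023), and Cxcl12, which retains blood stem cells, differed by -2.64 ± 0.29 (adjusted p = 3.66e-05). Of 28 interferon genes 4 were higher (7 without Y-SC 17 and A-SC first) and 7 lower, a share near the 22.7% of all genes. The receptor chains Ifngr1 (-2.02 ± 0.28, adjusted p = 1.80e-04) and Ifnar2 (-1.56 ± 0.26, adjusted p = 6.21e-04) were lower. Ifitm1, a membrane protein of early embryos and germ cells, was at least 9.88-fold higher (adjusted p = 3.59e-07). Tlr4, the endotoxin receptor, was not detected on ESC and was at least 5.29-fold lower (adjusted p = 5.06e-05). Among 17 genes of class I presentation 3 were higher and 2 lower, beside 24.5% and 22.7% of all tested genes. The class I gene H2-K1 was not called (0.29 ± 0.36, adjusted p = 0.528). Of 37 genes of the IGF axis and growth factors 23 were lower and 3 higher (19 and 2 of 32 detected on all arrays). Igfbp5 was at 6.30 on ESC D and 5.58 on ESC H and from 7.96 to 12.26 (median 10.92) on the fibroblast arrays, a difference of -4.81 ± 0.86 (adjusted p = 9.78e-04), and its relatives Igfbp2 and Igfbp3 were higher by 3.43 ± 0.65 (adjusted p = 0.00141) and 3.42 ± 0.61 (adjusted p = 9.62e-04). The receptors Tgfbr2 (-2.64 ± 0.24, adjusted p = 9.48e-06) and Tgfbr3 (-2.23 ± 0.37, adjusted p = 6.30e-04) and the ligand Tgfb3 (-3.54 ± 0.60, adjusted p = 7.22e-04) of the TGF-beta pathway were lower.

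The other genes with the widest gaps in favour of fibroblasts had varied roles. Nnmt, which methylates nicotinamide, was at 5.02 on ESC D and 4.87 on ESC H and from 9.79 to 11.81 (median 10.17) on the fibroblast arrays, a difference of -5.45 ± 0.66 (adjusted p = 7.98e-05). Cck, the peptide hormone cholecystokinin, was not detected on ESC (4.61 and 4.49), ranged from 9.06 to 11.91 among fibroblasts and was at least 28.5-fold lower (adjusted p = 1.76e-04). Vcam1, an adhesion molecule, differed by -4.51 ± 0.49 (adjusted p = 3.70e-05), the potassium channel subunit Kcnab1 by -4.66 ± 0.47 (adjusted p = 2.14e-05) and the mitochondrial folate enzyme Aldh1l2 by -4.42 ± 0.57 (adjusted p = 1.16e-04).

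The choice of fibroblast changed which genes were called more than the direction of a call. Against Y-SC 3451 genes were called, against A-SC 4232, and 3039 the same way against both. The ESC arrays are shared, so agreement in direction is in part built in. Of the genes, 1591 were higher and 1448 lower in ESC against both Y-SC and A-SC, and Prelp alone was called in opposite directions. Prelp, a proteoglycan that anchors basement membranes to collagen, was at 9.76 and 9.72 on ESC, at 7.54, 8.68 and 6.41 on Y-SC and at 12.33, 12.47 and 12.31 on A-SC. The 3 groups did not overlap, with ESC between the others. ESC minus Y-SC was 2.20 ± 0.74 (adjusted p = 0.0362), ESC minus A-SC -2.63 ± 0.74 (adjusted p = 0.0134) and A-SC minus Y-SC 4.82 ± 0.66 (adjusted p = 0.00729). Both contrasts with ESC share the ESC arrays. The first was not called without Y-SC first (adjusted p = 0.0647), Y-SC 17 (0.109), ESC D (0.147) or ESC H (0.149), and the second without ESC D (0.0699) or ESC H (0.0775). A-SC minus Y-SC kept its call under each left-out array. Other genes higher in A-SC than in Y-SC were Lmcd1, a LIM protein, at 3.20 ± 0.50 (adjusted p = 0.0164), and Sod3, the extracellular superoxide dismutase, at 2.77 ± 0.35 (adjusted p = 0.005). Lower ones were Flt1, a VEGF receptor, at -3.58 ± 0.66 (adjusted p = 0.041), and Lyz2 at -3.32 ± 0.53 (adjusted p = 0.0181), beside the macrophage markers given above. Leaving out single arrays ended the call on Lmcd1 without A-SC 1.4 (adjusted p = 0.0868), on Lyz2 without A-SC 1.3 (0.0572) or A-SC 1.4 (0.0601), and on Flt1 without any array but A-SC first (0.0624 to 0.162), while Sod3 kept it (up to 0.0292). Age, developmental stage and body site cannot be told apart in this contrast.

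The 2 ESC arrays differed little from each other. Of 8705 genes detected on both, 58 were at least 2-fold higher on ESC D and 72 on ESC H, and the median absolute difference was 0.23. With 1 array each these differences have no replicate check. Cdx2, a homeobox factor of trophectoderm and hindgut, was at 8.02 on ESC D and 6.42 on ESC H, and Krt23, a keratin, at 7.90 and 5.98. Calb2 (calretinin) was at 7.62 and 5.87 and the ligand Wnt6 at 8.50 and 6.80. In the other direction, Xlr4a, an X-linked lymphocyte-regulated gene, was at 6.49 and 8.68 and Rif1, which times replication and guards telomeres, at 5.67 and 7.61. Both values of Cdx2 lay above the fibroblast range of 4.40 to 4.59, where no array detected it, and its difference from fibroblasts, at least 4.39-fold higher (adjusted p = 0.00204), was not called without ESC D (adjusted p = 0.0556).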

How the data were processed

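Total RNA of 14 mouse samples was labelled and hybridised to Illumina MouseRef-8 v2.0 bead arrays. Per the file headers, the deposited table gives a non-normalized bead intensity and a detection p-value for 25697 probes on each array, and whether background was subtracted is not given in the sources used here. Lumi is named in the submitters' processing notes, without a version. The authors' deposited value table holds intensity on a linear scale with the same ranks as the first table and 1 common distribution, and was used as an alternative. Column names gave the sample of each column, with 0 left over.

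From there, limma 3.58.1 under R 4.3.3 was used. Its background correction took the negative controls that the detection p-values imply, an offset of 16 was added, and values were quantile normalized over all 14 arrays and taken to log2. Tests covered 13609 probes of 9300 genes, those whose detection p-value was below 0.05 throughout at least 1 of ESC, Y-SC and A-SC. Linear models had 1 mean per group over 6 groups (8 residual degrees of freedom, prior 3.702). Where several probes of a gene were tested, the brightest on average over the 8 arrays stands for it. The platform annotation gave 23978 probes 1 symbol, of which 23962 were brought up to date by gene ID, and 1719 had none. P-values were adjusted by Benjamini-Hochberg over all tested probes. Promoters came from RefSeq, build GRCm38.p6.

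Gene lists and members were chosen with earlier results of these data known. Named genes were the 12 highest and 12 lowest called genes with probes in the same direction and no overlap, up to 6 called members of a list in each direction and members not called, 24 fixed genes, the 6 highest and lowest in A-SC minus Y-SC and in ESC D against ESC H, and genes called in opposite directions. Not each of these is printed. Epcam and H19 of the fixed genes are not analysed here. Alternatives changed background, normalization, filter, fit, prior, weights, probes, export format and the arrays used. Fits without X and Y probes and without Y-SC 17 and A-SC first were chosen after seeing the data. Simulated data with known changes were used to test the fit.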

Additional observations from a re-analysis of the deposited data

Results flagged for a closer look

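Of 197 named genes, 17 had 1 fibroblast array that stood apart from the other 5 by Dixon's criterion, which chance alone meets in about 1 in 20 groups. On Y-SC 17, Olfml3 (8.11), Phgdh (7.96), Pparg (6.80) and Thbs2 (11.39) were low, and Gclc (6.11) and Phlda2 (6.63) were high. On A-SC first, Cck (11.91) was high, and Hk2 (10.07), Setdb1 (7.38) and Slc7a5 (10.12) were low. On Y-SC first, Rhox5 (5.46) and Sfn (6.29) were high and Ifitm1 was at 4.67. On A-SC 1.4, Dcn was low (9.33) and Tdgf1 was at 4.30. On Y-SC 16, Thy1 was high (13.47) and Pmel was at 4.90. Ifitm1, Tdgf1 and Pmel were not detected on any fibroblast array.

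For 10 named genes A-SC differed from Y-SC, and so did the differences of the 2 groups from ESC, by the limma test of A-SC minus Y-SC with an adjusted p under 0.05. Over all tested genes 0.516% were called in this contrast. Prelp, Lmcd1, Sod3, Igf2, Igf2bp1, Flt1 and Lyz2 were named for their rank in it, so the count of 10 was fixed in part by that choice. Prelp (4.82), Lmcd1 (3.20), Sod3 (2.77), Tlr4 (1.71) and Dnmt3l (1.43) were higher in A-SC on the log2 scale. Igf2 (-5.92), Igf2bp1 (-3.62), Flt1 (-3.58), Lyz2 (-3.32) and Cxcl12 (-2.17) were lower in A-SC. The 3 arrays of A-SC did not overlap with the 3 of Y-SC for any of these 10 genes. Since the same contrast chose them, this is a description and no separate support. With 1 of the 8 arrays left out in turn, Prelp, Sod3, Igf2bp1 and Cxcl12 held this call in 8 of 8 fits, Lmcd1 in 7, Lyz2 in 6, Dnmt3l in 4, Igf2 and Tlr4 in 2 and Flt1 in 1.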

How the results depend on the processing

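Of 27 alternatives, 8 left out 1 array. Probes called were 6307 in ESC minus fibroblasts, 4912 against Y-SC, 6103 against A-SC, 4345 called the same way against both and 61 in A-SC minus Y-SC. With treat and a minimum fold of 2, which asks more of each probe, these were 1172, 841, 1245, 741 and 1. With arrays of the first export format only, which leaves 1 array per fibroblast group (assumed to vary like the other groups), calls were 3034 against Y-SC, 2485 against both and 714 in A-SC minus Y-SC. The last count was also 38 without background correction, 37 in the authors' table, 26 without a filter, 14 with probes detected on all 8 arrays, 32 in the 8 arrays alone, 135 with fibroblasts of the second format and 135 without Y-SC 17 and A-SC first; the cause was not tested. With 1 array left out, the counts ranged from 3381 to 6606, 2337 to 5437, 3511 to 6461, 2073 to 4446 and 22 to 107. The lowest of the first 4 came without ESC H; without ESC D these were 3855, 2748, 4017 and 2470. A-SC minus Y-SC had 22 without A-SC 1.4, 40 without ESC D or ESC H, 101 without Y-SC 16 and 107 without A-SC first. Of 165 called named genes, 122 kept call and direction under every alternative in which they were tested (genes not detected on every array were not tested under detection on all 8), 43 lost the call at least once and 0 reversed; 12 of the others were called at least once. Genes not called that turned sign were Bmp4 (-0.99 with export format as a block, -0.97 in the first format only), Eif2s3y (-1.56 and -1.55) and Xlr4a (-0.26 without ESC H and up to 1.93 without ESC D). Without Y-SC 17 and A-SC first, counts of list members moved from 10 to 14 lower HOX genes, 4 to 7 higher interferon genes, 1 to 4 lower one-carbon enzymes, 1 to 4 higher endothelial markers, 1 to 2 higher chemokine and cytokine genes, 2 to 1 lower trophectoderm markers and 0 to 1 lower DNA repair genes. The median difference over tested probes lay between -0.0669 and 0.0605. No paired analysis was possible because the groups share fewer than 2 replicate numbers. With 2 ESC arrays, the number of arrays limits the precision, and probes near background give only bounds.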

Other observations

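Amino acid transporters went both ways, with 6 of 15 tested genes higher in ESC and 4 lower, beside 24.5% and 22.7% of all tested genes. Slc7a7, a carrier of cationic and neutral amino acids, was at 9.45 on ESC D and 9.12 on ESC H and from 5.48 to 7.10 (median 6.43) on the fibroblast arrays, a difference of 2.96 ± 0.40 (adjusted p = 1.65e-04). Slc6a9, a glycine carrier, was lower at -2.96 ± 0.29 (adjusted p = 1.74e-05) and Slc1a4, a carrier of small neutral amino acids, at -1.76 ± 0.36 (adjusted p = 0.00213). With export format as a block the Slc1a4 difference was -1.06 and was called. The carriers of neutral amino acids Slc7a5 (0.06 ± 0.48, adjusted p = 0.932) and Slc38a2 (0.45 ± 0.40, adjusted p = 0.371) were not called. Slc7a5 was called in the first export format only (0.90, adjusted p = 0.03).

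Of 6 primitive endoderm markers tested, 2 were higher and 2 lower, beside 24.5% and 22.7% of all tested genes. Of the 3 detected on all 8 arrays none was higher and 2 were lower. Gata6, a factor of that lineage, was not called (-0.44 ± 1.03, adjusted p = 0.75). Of 8 melanocyte and Schwann cell markers on the array 3 were tested. Among these 2 were higher, at low levels, beside 24.5% of all tested genes. Both entered the test through detection in ESC, and the 1 marker detected on all 8 arrays was not called. Of the 2, the melanosome gene Pmel was at 6.39 and 6.88 on ESC (at least 2.92-fold higher, adjusted p = 1.32e-05). Pparg, the regulator of fat cells, was not detected on ESC, was detected on all 6 fibroblast arrays (6.80 to 8.64) and was at least 8.35-fold lower (adjusted p = 1.50e-04).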
